A study of Nothobranchius furzeri with 6 samples.

Results

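Stretches of consecutive aspartate and glutamate codons (acidic runs) were examined in ribosome profiling of killifish liver. A run was defined as 5 or more such codons in a row that lay at least 20 codons from both ends of the coding sequence. Transcripts had to hold over 0.5 reads per codon and over 64 reads in that internal part at each age, with the libraries of an age summed. By this rule 751 runs were found in 540 of 6335 covered transcripts, out of 3833 runs in 2592 transcripts among all 22757. The livers came from the African turquoise killifish (Nothobranchius furzeri, strain MZM-0410), a fish with a short life span in captivity. The 3 age groups had 2 libraries each and carried no treatment or allele. Fish were 5 weeks old after hatching in the young group, 12 weeks in the adult and 39 weeks in the old one. Each library was made from pooled livers of several fish, with males and females mixed equally according to the methods, so libraries of an age differ as pools, and animals were not measured one by one.

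In ribosome profiling, lysate is treated with nuclease, the mRNA pieces shielded by ribosomes (footprints) are sequenced, and the number of footprints on a codon reflects how many ribosomes were found there and for how long. Aspartate and glutamate are the amino acids with a negatively charged side chain. Long acidic stretches are frequent in nucleolar proteins, histone chaperones and other proteins that bind positively charged partners, and in many proteins they have no fixed fold. The ribosomal exit tunnel is lined mostly by negatively charged RNA, and stretches of the positively charged residues lysine and arginine are known to slow elongation in it. Changes of ribosome pausing with age were among the subjects of the published study, and acidic runs carry the charge opposite to that of the basic stretches. The measure used throughout is the pause score, the reads at a codon divided by the mean reads per codon of the internal part of the same transcript in the same library. A score of 1 is the transcript mean. The score of a run is the mean over its codons.

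The runs that the values below turn on are shown here as deposited, 5′ to 3′, with the run in capitals and 5 codons on either side in lower case. They were picked by length, by score among runs of 60 or more reads, or by the size of their age difference. The first 3 had the highest scores, the next 3 the lowest, the next 2 were among the longest, and the last 2 had the smallest p-values for a higher and for a lower score in old than in young libraries.
Codons 40 to 46 of 773: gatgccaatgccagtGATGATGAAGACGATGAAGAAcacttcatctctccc
Codons 21 to 25 of 406: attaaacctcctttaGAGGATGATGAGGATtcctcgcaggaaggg
Codons 217 to 221 of 316: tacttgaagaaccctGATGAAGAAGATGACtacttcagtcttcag
Codons 385 to 399 of 423: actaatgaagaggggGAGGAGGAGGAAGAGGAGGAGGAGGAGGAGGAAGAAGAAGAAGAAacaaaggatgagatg
Codons 312 to 317 of 796: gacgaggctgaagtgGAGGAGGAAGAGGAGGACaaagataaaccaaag
Codons 53 to 58 of 945: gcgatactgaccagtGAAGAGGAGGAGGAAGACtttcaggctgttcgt
Codons 251 to 272 of 718: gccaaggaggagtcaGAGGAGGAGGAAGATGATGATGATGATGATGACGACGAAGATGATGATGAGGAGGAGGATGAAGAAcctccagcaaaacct
Codons 42 to 58 of 492: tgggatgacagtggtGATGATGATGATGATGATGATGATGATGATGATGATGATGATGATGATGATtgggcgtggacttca
Codons 60 to 64 of 408: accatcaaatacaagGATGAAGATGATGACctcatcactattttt
Codons 1917 to 1921 of 2293: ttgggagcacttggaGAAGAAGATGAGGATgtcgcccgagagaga

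Glutamate is encoded by GAA and GAG, and aspartate by GAT and GAC. GAG made up 41.2% of the 4915 run codons, GAT 24.0%, GAA 21.6% and GAC 13.2%. Of the 751 runs, 604 mixed both residues, 123 were all glutamate and 24 were all aspartate. Most runs were short, with 363 of 5 codons, 136 of 6, 90 of 7, 105 of 8 to 10 and 57 of 11 or more, up to 22 codons. A single run was present in 407 of the transcripts, 2 in 87 and 3 or more in 46, with at most 6. The runs were spread along the coding sequence, with a median position at 48.1% of its length. The codons next to a run were also rich in acidic residues, which took 23.2% of the 5 codons before a run, against 13.9% of the codons outside runs in the same transcripts.

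The libraries held 22617158 to 39738019 footprints, of which 6675 to 8948 fell in acidic runs. Old replicate 2 was the shallowest library in total. The median run had 9 reads over the 6 libraries, 51 runs had none and 69 had 60 or more. A single run, codons 21 to 25 of a 406-codon sequence, held 14895 of the 47326 reads in runs. Most single runs are therefore too thinly covered for a comparison of their own, and the mean over runs is given for each library. Liver genes were not looked up to check the tissue label, because 0 transcript identifiers matched the table of gene names used here.

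Ribosome density on acidic runs was low in every library. The mean run score was 0.436 and 0.505 (young), 0.419 and 0.426 (adult) and 0.422 and 0.529 (old libraries), with a mean of 0.456 ± 0.048 (SD, n = 6). With the median over runs in place of the mean, the score was 0.228. Acidic codons outside runs in the same transcripts scored 0.943 and 0.980 (young), 0.905 and 1.005 (adult) and 0.932 and 0.982 (old libraries). The highest run score of a library lay below the lowest score outside runs. The mean difference was -0.501 (run minus outside, lower in 6 of 6 libraries, exact sign-flip test over libraries, two-sided p = 0.03125, the smallest that 6 libraries can give). The same held against the 15 codons before the run, which averaged 0.895 ± 0.018, and the 15 codons after it, which averaged 0.782 ± 0.022. Those flanks exceeded the run by 0.439 and 0.326 in 6 of 6 libraries (p = 0.03125 each by the exact sign-flip test, and 0.03125 after adjustment over the 4 comparisons of this kind). Because the 2 libraries of an age are pools, these p-values measure only the spread between the libraries.

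**Figure D1:**
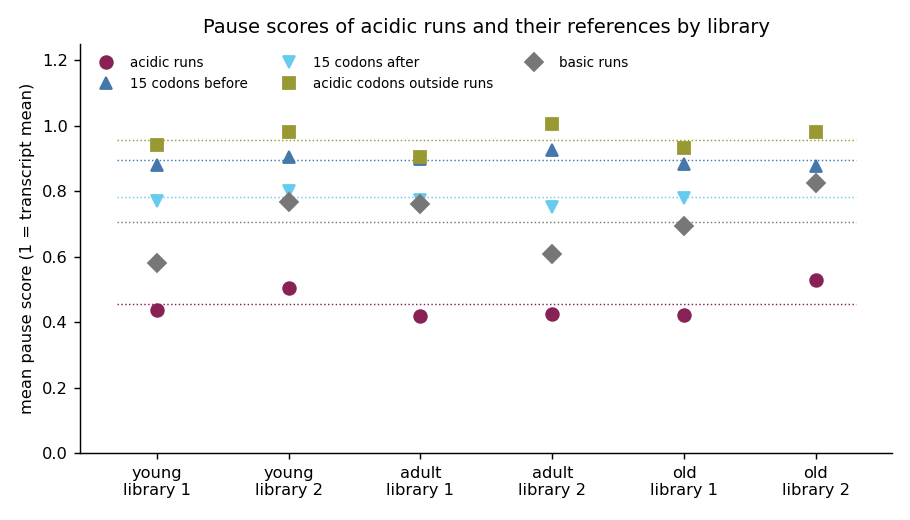
Mean pause score (vertical axis, 1 is the transcript mean) in each of the 6 libraries (horizontal axis) for acidic runs, the 15 codons before and after them, acidic codons outside runs in the same transcripts, and runs of lysine and arginine. Dotted lines are means over the libraries. Acidic runs sit between 0.419 and 0.529 and below the other 4 measures in each library.

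Single runs varied around the low mean. Of the 751 runs, 463 (61.7%) scored below 1 in all 6 libraries and 10 scored above 1 in all 6. The shares of other windows on 1 side of the transcript mean in all 6 libraries were not counted. The counts of runs below or above 1 can therefore not be read as particular to runs. At a median of 9 reads per run many of these scores rest on codons without a read. Among the 69 runs of 60 or more reads, 31 scored below 1 in all 6 libraries, 9 above 1 in all 6 and 29 on both sides, with a mean of 0.931 ± 0.048 (SD, n = 6), and these runs are selected for high scores because reads are needed to pass. Positions without any read made up 76.2% ± 4.5 of run codons, against 60.7% ± 6.8 of the codons outside runs in the same transcripts (SD, n = 6), a difference of 15.4 percentage points. Strong pauses, defined as a score over 6, made up 0.882% ± 0.343 of run codons, against 2.83% ± 0.86 outside runs, a difference of -1.95 percentage points. Both differences had the same sign in 6 of 6 libraries (exact sign-flip test, p = 0.03125, adjusted p = 0.03125 over 2 tests). The run score varied little with the footprint density of the transcript, at 0.443 ± 0.079 in the 192 runs of the most thinly covered transcripts and 0.50 ± 0.04 in the 185 runs of the most densely covered ones (SD, n = 6).

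Reads were kept by the authors only where they aligned to a single best place, so a repeated stretch can lose footprints. Of the 751 runs, 723 lay in 30-nucleotide stretches that occurred once among the transcripts, and these scored 0.469 ± 0.049. The other 28 runs contained a stretch that occurred more than once and scored 0.132 ± 0.029 (SD, n = 6). Copies inside the same run were counted together with copies elsewhere. With the repeated runs left out, the run score was no higher than 0.545 in any library. Only exact repeats of 30 nucleotides were checked, so shorter footprints could still be lost in runs counted as unique.

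The make-up of a run went with its score. All-glutamate runs had the lowest scores, at 0.193 and 0.201 (young), 0.199 and 0.166 (adult) and 0.175 and 0.288 (old libraries). All-aspartate runs scored 0.952 and 0.778 (young), 0.909 and 0.602 (adult) and 0.889 and 1.125 (old libraries). The ranges over libraries did not overlap, and the difference was 0.672 ± 0.143 (aspartate minus glutamate, SD, n = 6). Mixed runs lay between them, at 0.334 ± 0.036 for the 369 with more glutamate and 0.737 ± 0.085 for the 235 with at least as many aspartate codons. Taken over all compositions, the 259 runs with at least as many aspartate codons averaged 0.750, against 0.302 in the 492 runs with a glutamate majority, a difference of 0.449 ± 0.063. Both differences had 6 of 6 libraries in one direction (exact sign-flip test, p = 0.03125, adjusted p = 0.03125 over 4 tests).

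Scores were also ordered by the share of GAG in a run. GAG is a glutamate codon, and its share was not separated from the glutamate share. Runs without GAG averaged 0.787 ± 0.091 (88 runs), runs with up to 33.3% GAG 0.586 ± 0.061 (227 runs), runs with up to 66.7% 0.371 ± 0.036 (314 runs) and runs above that 0.197 ± 0.050 (122 runs). The first exceeded the last by 0.590 ± 0.057 in 6 of 6 libraries (exact sign-flip test, p = 0.03125, adjusted p = 0.03125). Runs of the last class had no read in 17.2% of cases, against 1.14% of runs without GAG.

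Each of the 4 acidic codons scored lower inside runs than outside them. GAG scored 0.308 ± 0.043 in runs, against 0.860 ± 0.027 outside, a ratio of 0.358 ± 0.042. GAA scored 0.389 ± 0.033, against 0.996 ± 0.061 outside, a ratio of 0.391 ± 0.020. GAT scored 0.590 ± 0.054, against 1.12 ± 0.07 outside, a ratio of 0.528 ± 0.043. GAC scored 0.531 ± 0.108, against 0.946 ± 0.024 outside, a ratio of 0.561 ± 0.112. The 4 differences were negative in 6 of 6 libraries (exact sign-flip test, p = 0.03125 each, adjusted p = 0.03125 over 4 tests), and both glutamate codons had lower ratios than both aspartate codons on average.

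The same order of the residues was present outside the runs, in windows of 5 codons. Windows without any acidic codon averaged 1.03 ± 0.01. With 1, 2, 3 and 4 glutamate codons and no aspartate, the mean was 0.937 ± 0.015, 0.754 ± 0.035, 0.539 ± 0.043 and 0.339 ± 0.069. With 1, 2, 3 and 4 aspartate codons and no glutamate, it was 1.08 ± 0.01, 1.11 ± 0.03, 1.13 ± 0.06 and 1.14 ± 0.16 (SD, n = 6). The window score was lower with each further glutamate codon. For aspartate codons the mean was slightly higher with each further codon, with libraries that overlapped from 1 to 4 codons.

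Glutamate codons consist of the bases A and G only, and aspartate codons end in C or T. Windows with codons of A and G only but no acidic codon (lysine, arginine or glycine codons) also scored low where such codons were dense. These windows averaged 1.06 ± 0.03 with none of those codons, 0.786 ± 0.064 with 3, 0.620 ± 0.074 with 4 and 0.410 ± 0.073 with 5. Among the runs of lysine and arginine, the 176 made of A and G only scored 0.556 ± 0.103 and the 151 with other bases 0.882 ± 0.108. Acidic runs of A and G only, which are the all-glutamate runs, scored 0.204 ± 0.044, against 0.506 ± 0.051 for the 628 with C or T. The part of base composition in the glutamate values was not tested, and in these runs the residue and its bases cannot be told apart.

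**Figure D2:**
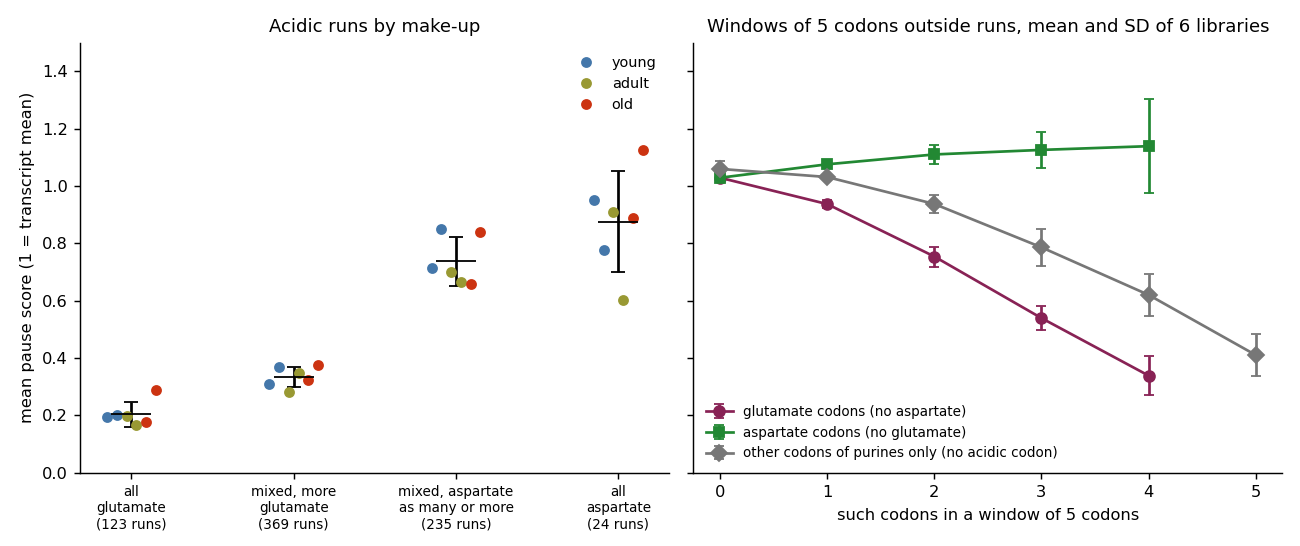
Left, mean pause score of acidic runs by composition in each library (points, coloured by age), with mean and SD over 6 libraries (black). Right, mean pause score (SD over 6 libraries) of windows of 5 codons outside runs, by the number of glutamate, aspartate or other purine-only codons in the window. All-glutamate runs lie between 0.166 and 0.288, and the glutamate line falls to 0.339 at 4 codons while the aspartate line stays above 1.

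Longer runs held fewer footprints per codon. Single acidic codons scored 1.01 ± 0.04, pairs 0.969 ± 0.043, triplets 0.759 ± 0.040 and stretches of 4 codons 0.576 ± 0.047. Runs of 5 codons scored 0.553 ± 0.052, of 6 codons 0.418 ± 0.061, of 7 codons 0.399 ± 0.061, of 8 to 10 codons 0.361 ± 0.080 and of 11 or more 0.199 ± 0.015 (SD, n = 6). Neighbouring classes from 5 to 10 codons overlapped between libraries. Runs of 11 or more codons scored lower than runs of 5 codons by 0.354 ± 0.052 in 6 of 6 libraries (exact sign-flip test, p = 0.03125, adjusted p = 0.03125). The glutamate share was 63.0% in runs of 5 codons, 62.9% in runs of 6, 65.7% in runs of 7, 58.5% in runs of 8 to 10 and 65.0% in runs of 11 or more. The decrease with length was present in both classes of composition, though the glutamate share within a class was not held fixed over lengths. Runs with a glutamate majority scored 0.379 ± 0.046 at 5 codons, 0.265 ± 0.038 at 6 to 7 and 0.168 ± 0.022 at 8 or more. Runs with at least as many aspartate codons scored 0.930 ± 0.084, 0.642 ± 0.096 and 0.553 ± 0.122 over the same classes.

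Stretches of lysine and arginine, whose side chains are positively charged, had another relation to length. Single basic codons scored 0.871 ± 0.017, pairs 0.750 ± 0.033, stretches of 4 codons 0.689 ± 0.052 and runs of 7 codons 0.679 ± 0.160. The few longer ones scored 0.742 ± 0.276 at 8 codons (7 runs), 0.808 ± 0.215 at 9 (12 runs) and 1.05 ± 0.34 at 10 or more (4 runs), with wide ranges over libraries. Over the 327 basic runs the mean was 0.707 ± 0.097, and acidic runs were lower by 0.250 (acidic minus basic -0.250, lower in 6 of 6 libraries, exact sign-flip test, p = 0.03125). Each run has the same weight in that mean, and pooling gave another order. When the reads of all runs were pooled, acidic runs averaged 0.639 ± 0.070 and basic runs 0.578 ± 0.086, and the difference turned to 0.061 with acidic runs higher in 6 of 6 libraries (p = 0.03125, exact sign-flip test). Without the 1 run that held 14895 reads, pooled acidic runs averaged 0.464 ± 0.037 and the difference was -0.115, with acidic runs lower in 6 of 6 libraries (exact sign-flip test, p = 0.03125, a setting chosen after seeing the data). In the 67 acidic and 30 basic runs of transcripts with over 2 reads per codon in each library, the difference was 0.047 (p = 0.188, exact sign-flip test).

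**Figure D3:**
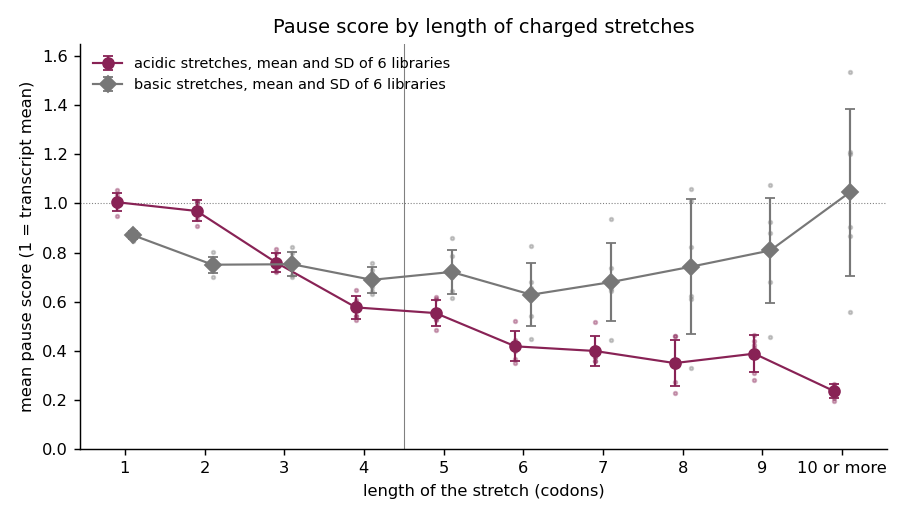
Mean pause score (vertical axis) against the length of acidic and of basic stretches in codons (horizontal axis, 10 stands for 10 or more). Large symbols are means with SD over 6 libraries, small dots are libraries, and the vertical line marks the 5-codon minimum of a run. Acidic stretches fall to 0.235 at 10 or more codons, basic stretches of 2 to 8 codons average between 0.628 and 0.752, and the 4 basic runs of 10 or more codons average 1.05.

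Footprint density around the runs declined before the run and recovered over several codons after it. From 15 to 6 codons before the run the mean was 0.941 ± 0.016 and 0.945 ± 0.036 in the 2 windows of 5 codons. The mean was 0.880 ± 0.017 at 5 to 3 codons and 0.689 ± 0.058 at 2 to 1 codons before the run. The first 5 codons of the run averaged 0.463 ± 0.054. Downstream, the mean was 0.542 ± 0.044 at codons 1 to 2, 0.738 ± 0.038 at codons 3 to 5, 0.839 ± 0.018 at codons 6 to 10 and 0.857 ± 0.034 at codons 11 to 15 (SD, n = 6). At 12 to 8 codons before the run the score was 0.954 ± 0.036. Within that window the eighth codon before the run scored 1.02 and 1.02 (young), 1.04 and 1.11 (adult) and 0.938 and 0.923 (old libraries). The order of old and young was reversed at the seventh codon before the run. That codon scored 0.876 and 0.901 (young), 0.873 and 0.784 (adult) and 0.920 and 0.917 (old libraries). Old and young libraries also did not overlap at other positions around the run, with old lower at some and higher at others. The seventh and eighth codons are therefore examples and are not read as an age pattern. Age differences at single positions were not tested.

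The trough was deep in runs with a glutamate majority. Their score was 0.514 ± 0.060 at the second codon before the run, 0.457 ± 0.071 at the first run codon and 0.227 ± 0.060 at the fifth. After the run it was 0.341 ± 0.074 at the first codon and 0.826 ± 0.052 at the sixth. Runs with at least as many aspartate codons had scores of 0.813 ± 0.105, 0.914 ± 0.132, 0.695 ± 0.143, 0.752 ± 0.090 and 0.850 ± 0.066 at the same positions. The score of the next codon also varied with the residue that followed the run. It was 1.04 ± 0.43 for proline (39 runs), 0.669 ± 0.161 for glycine (124 runs) and 0.469 ± 0.089 for serine or threonine (100 runs). It was 0.387 ± 0.055 for hydrophobic residues (298 runs) and 0.258 ± 0.125 for lysine or arginine (86 runs). Runs followed by other residues are not listed. These differences were not tested. The same residues away from runs were not scored for comparison, so the values cannot be tied to the run.

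**Figure D4:**
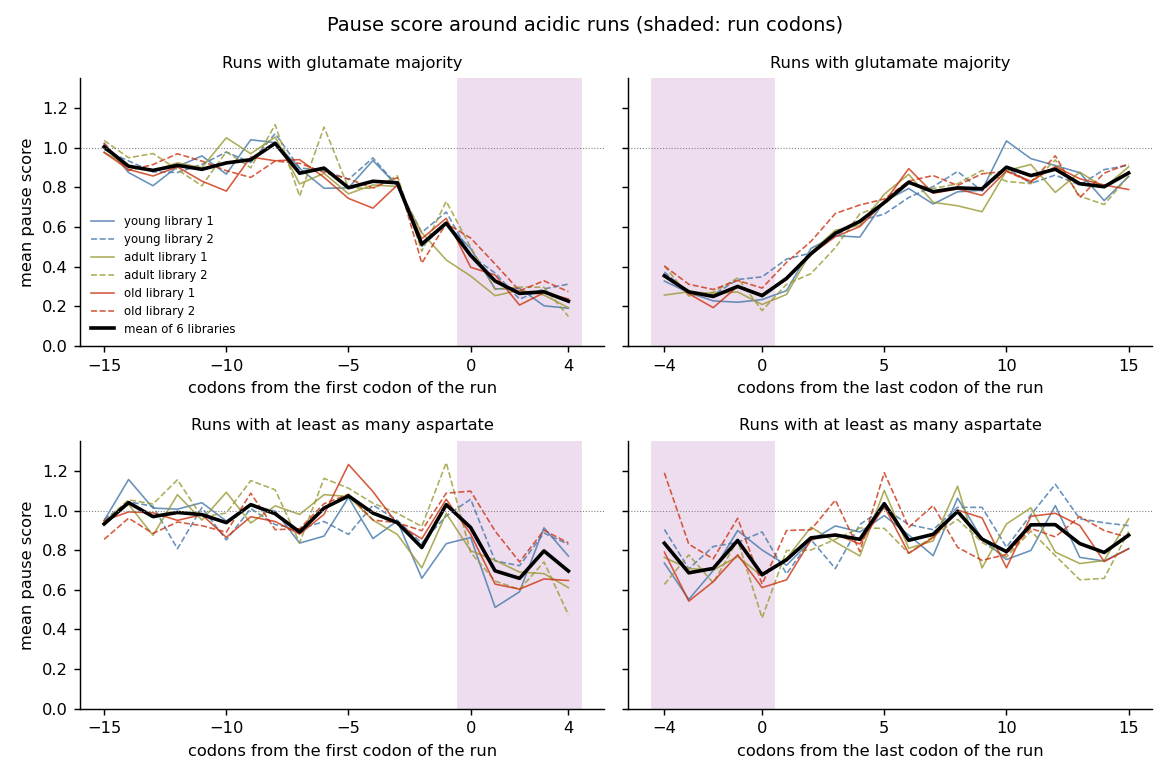
Mean pause score (vertical axis) by distance in codons from the first or last codon of the run (horizontal axis), for runs with a glutamate majority (top, 492 runs) and with at least as many aspartate codons (bottom, 259 runs). Coloured lines are libraries (solid and dashed for the 2 libraries of an age) and black lines their mean. In the top panels the mean reaches 0.227 inside the run and 0.826 at the sixth codon after it.

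Single runs with enough reads differed widely from the mean. Runs of 60 or more reads over the 6 libraries are a selected set, since high scores help a run to pass, and their values are a description. The highest score was in the run at codons 40 to 46 of 773, with 3 glutamate and 4 aspartate codons and no GAG. It scored 5.71 and 2.89 (young), 3.82 and 6.31 (adult) and 3.94 and 3.45 (old libraries). The reads lay in its second part. Its first 3 codons scored at most 1.64 in any library, and its last codon scored 12.4 and 5.15 (young), 9.50 and 8.18 (adult) and 9.19 and 10.7 (old libraries).

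The next highest was the run at codons 21 to 25 of 406, the most deeply read of all. It scored 3.24 and 3.40 (young), 3.08 and 4.07 (adult) and 3.59 and 3.56 (old libraries). Its first codon, GAG, scored 7.90 and 7.17 (young), 6.05 and 6.22 (adult) and 8.21 and 7.92 (old libraries). This run begins at the first codon of the internal part, so no score was computed for the codons before it. The run at codons 217 to 221 of 316 had 76 reads and scored 1.397 and 2.14 (young), 3.43 and 3.81 (adult) and 2.36 and 2.87 (old libraries). Those 3 runs held at least as many aspartate as glutamate codons. The other 2 of the 5 highest averaged 2.45 ± 1.00 at codons 35 to 39 of 1226, with 3 glutamate and 2 aspartate codons, and 1.72 ± 0.52 at codons 671 to 675 of 1368, with 2 glutamate and 3 aspartate codons (SD, n = 6).

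The lowest score among these runs was in 15 glutamate codons at codons 385 to 399 of 423. It scored 0.015 and 0.041 (young), 0.006 and 0.012 (adult) and 0.030 and 0.045 (old libraries), while the transcript held 199 reads per codon over the 6 libraries. Of its 30-nucleotide stretches, 13 occurred more than once, in the run itself or elsewhere, and the part of these repeats in its score was not tested. The run at codons 312 to 317 of 796 was unique and scored 0.080 and 0.110 (young), 0.109 and 0.168 (adult) and 0.120 and 0.061 (old libraries). The run at codons 53 to 58 of 945, also unique and with 677 reads, scored 0.134 and 0.242 (young), 0.151 and 0.143 (adult) and 0.181 and 0.238 (old libraries). Each of the 5 lowest runs scored at most 0.259 in all libraries. The remaining 2, at codons 41 to 46 of 643 and 55 to 62 of 108, averaged 0.194 ± 0.045 and 0.200 ± 0.028. The first of these held 2 glutamate and 4 aspartate codons, and the second 4 of each. Their scores were thus low although they held at least as many aspartate as glutamate codons.

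The longest run, 22 codons at 251 to 272 of 718, scored 0.283 and 0.283 (young), 0.458 and 0.260 (adult) and 0.402 and 0.448 (old libraries). It held 221 reads, and no codon of it scored above 1 in all 6 libraries. The run of 17 GAT codons at 42 to 58 of 492 had 21 reads and scored 0.439 ± 0.258 (SD, n = 6). Of its 30-nucleotide stretches, 28 occurred more than once, with copies inside this repeat of 1 codon counted too. The other 3 of the 5 longest runs, at codons 527 to 546 of 1202, 1581 to 1597 of 1662 and 243 to 258 of 545, had 3, 40 and 10 reads, too few to compare single libraries.

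**Figure D5:**
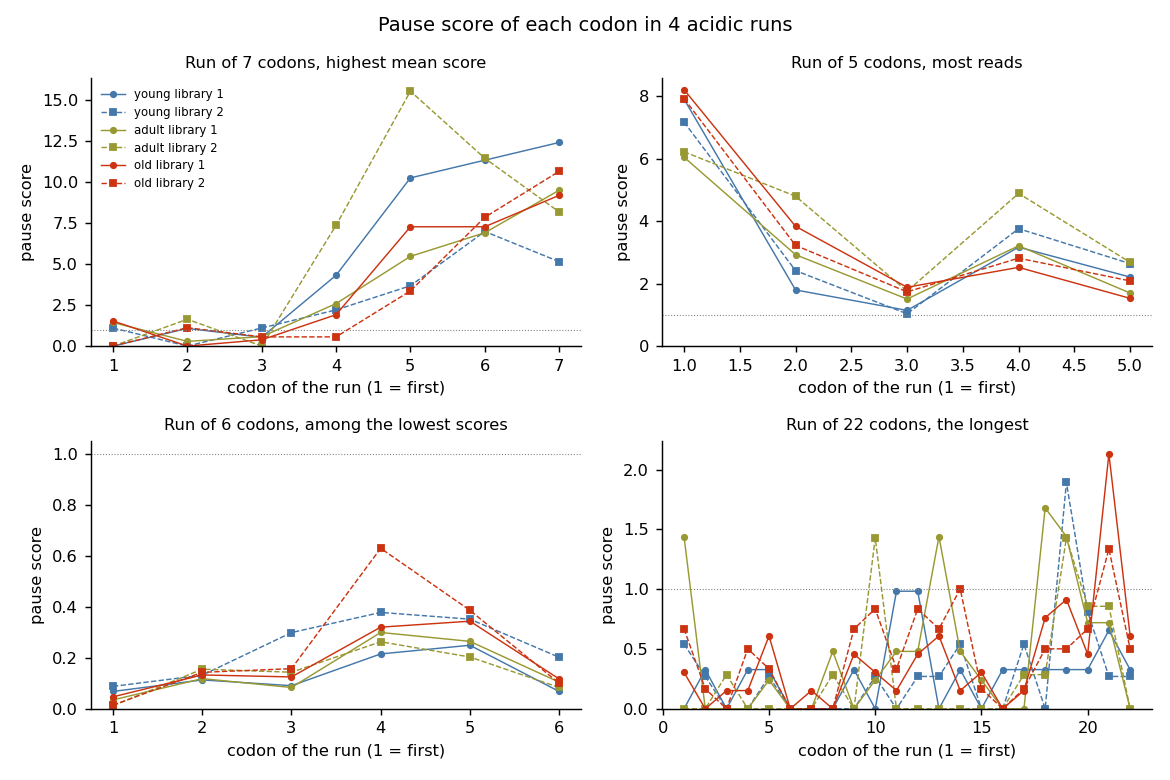
Pause score (vertical axis, linear, scaled per panel) of each codon (horizontal axis, 1 is the first codon of the run) in 4 acidic runs, at codons 40 to 46 of 773, 21 to 25 of 406, 53 to 58 of 945 and 251 to 272 of 718. Lines are libraries, coloured by age and solid or dashed for the 2 libraries of an age. The rise over the last codons of the first run and the peak at the first codon of the second are present in all 6 libraries.

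To ask whether pausing on acidic runs differed with age, the mean run scores of the libraries were compared. Old libraries averaged 0.476 ± 0.076 and young libraries 0.471 ± 0.049, a difference of 0.005 (SD, n = 2 each, exact permutation test, p = 1). Adult libraries averaged 0.423 ± 0.005, and the differences were -0.048 for adult minus young (p = 0.33) and 0.053 for old minus adult (p = 0.667, exact permutation tests). With 2 libraries against 2 no p below 0.33 is possible, so these tests could not pass a threshold. Old and young libraries overlapped, and the highest and the lowest of those 4 scores were both in old fish. The old minus young difference was 0.016 in runs with a glutamate majority and -0.016 in runs with at least as many aspartate codons, both smaller than the SD between 2 libraries of either age.

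Age differences of single codons were tested with Fisher's exact test (two-sided) on the summed reads of an age. In this test reads are treated as independent and there is no term for the spread between libraries. A codon was called at an adjusted p under 0.05 if its reads in the age with the higher score also exceeded the transcript mean. Between old and young, 2 of the 4915 run codons were increased (0.0407%), against 0.366% of all 2513258 codons tested, and 4 were decreased (0.0814%), against 0.438% of all. Between adult and young, 4 were increased and 4 decreased (0.0814% each), against 0.340% and 0.386% of all. Between old and adult, 2 were increased and 2 decreased (0.0407% each), against 0.253% and 0.296% of all. Run codons also had fewer reads to test, since 2.81% of them held 20 or more reads over old and young libraries, against 12.2% of all codons. Codons with low scores also meet the rule on the transcript mean less often, and run codons scored low. The parts of depth and of that rule in the lower share of calls were not tested.

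The calls fell in few runs. Both increased codons of the old vs young comparison and 2 of the 4 decreased ones were in the run at codons 21 to 25 of 406. GAT at codon 22 had 1068 reads in old and 650 in young libraries, with an odds ratio of 1.66 (Fisher's exact test, adjusted p = 4.83e-22), and scores of 3.83 and 3.22 in old, against 1.796 and 2.41 in young libraries. GAT at codon 23 had an odds ratio of 1.67 (Fisher's exact test, adjusted p = 3.07e-11), with 548 reads in old and 331 in young libraries. In the same run, codons 24 and 25 were decreased, with odds ratios of 0.764 and 0.741 (Fisher's exact test, adjusted p = 2.06e-06 and 2.09e-05). Over the whole run the old and young scores differed by less than those of its codons, at 3.59 and 3.56 in old, against 3.24 and 3.40 in young libraries. The remaining decreased codons were GAT at codon 167 of 253, with 6 reads in old and 38 in young libraries (odds ratio 0.228, Fisher's exact test, adjusted p = 0.0169), and GAA at codon 65 of 605 (odds ratio 0.774, adjusted p = 0.0165). All 6 moved the same way in both same-numbered pairs of libraries. The calls were made on the summed reads of those libraries, so this is no independent support. The decreased count was 0 without young replicate 2 and 1 without old replicate 1, and the share of all codons was not counted with a library left out.

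A test with a term for the spread between libraries called no run. In edgeR's quasi-likelihood test, 69 runs of 60 or more reads were fitted together with windows of 6 codons from the rest of the covered transcripts, 119736 windows in all, relative to the reads of the transcript. After adjustment over all windows, 0 runs passed in old vs young, against 0.0877% of windows higher and 0.0643% lower in old. In adult vs young 0 runs passed, against 0.0401% of windows higher and 0.0192% lower in adult. In old vs adult 0 runs passed, against 0.0635% higher and 0.0493% lower in old. At shares this low, 0 of 69 runs does not set the runs apart from other windows. DESeq2 with the same offsets gave an adjusted p to 3 of the 69 runs and called 0 of them in each comparison. Of the 8309 windows with an adjusted p it called 1.32% higher and 1.58% lower in old vs young. The shares were 0.181% and 0.253% in adult vs young, and 0.951% and 0.77% in old vs adult. Against such shares 3 runs are too few to compare. At an unadjusted p under 0.05 there were 2 runs (2.90%) in old vs young, 6 (8.70%) in adult vs young and 9 (13.0%) in old vs adult, against 6.99%, 6.61% and 7.54% of all windows. The median log2 fold change of the 69 runs was 0.04 in old vs young, with a range of -1.33 to 1.06, -0.01 in adult vs young and 0.23 in old vs adult, against 0.00 over all windows in each comparison. Both old libraries lay above both young libraries in 17 runs (24.6%), against 19.0% of all windows, and below them in 11 runs (15.9%), against 18.7%.

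The runs closest to an age difference are given by smallest p and were not called. The run at codons 60 to 64 of 408 scored 2.28 and 2.73 in old, against 0.775 and 1.52 in young libraries, and 1.22 and 0.605 in adult libraries (old vs young log2 fold change 1.06, edgeR adjusted p = 0.617). The run of 14 codons at 243 to 256 of 770 scored 0.290 and 0.340 in old, against 0.109 and 0.202 in young libraries, and 0.239 and 0.271 in adult libraries (log2 fold change 0.96, edgeR adjusted p = 0.686). The run at codons 231 to 237 of 284 scored 1.79 and 1.94 in old, against 1.32 and 0.776 in young libraries, and 2.40 and 0.646 in adult libraries (log2 fold change 0.81, edgeR adjusted p = 0.735). In these 3 runs the old libraries did not overlap with the young ones. That follows largely from their choice by smallest p and is no further support. Both old libraries lay above both young ones in 19.0% of all windows.

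On the lower side, the run at codons 1917 to 1921 of 2293 scored 0.164 and 0.128 in old, against 0.448 and 0.334 in young libraries, and 0.517 and 0.531 in adult libraries, from 6 reads in old and 26 in young libraries (log2 fold change -1.33, edgeR adjusted p = 0.731). The runs at codons 522 to 526 of 585 and 104 to 109 of 188 had log2 fold changes of -0.48 and -0.59 (edgeR adjusted p = 0.783 and 0.794), and both old libraries lay below both young ones. The choice by smallest p largely brings this about, and 18.7% of all windows did the same. None of these 6 runs stood out from the background of all windows after adjustment.

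The transcripts that carry the runs were also compared in ribosome occupancy, all footprints of a coding sequence added up, with edgeR's quasi-likelihood test on 15557 transcripts. Occupancy includes any change in mRNA level, since matched RNA-seq was not used here, and in whole liver fewer cells of a type and less RNA per cell cannot be told apart. Between old and young, 9 of the 540 run transcripts were higher in old (1.67%), against 6.56% of all transcripts, and 48 were lower (8.89%), against 5.01%. Run transcripts had to be covered by the rule, and among all 6335 covered transcripts 3.30% were higher and 8.71% lower. The median log2 fold change was -0.19 in run transcripts, against -0.18 in covered transcripts and 0.07 in all. Between adult and young, 0 were called in either direction by edgeR, against 1.17% of all and 0.758% of covered transcripts higher, and 0.186% of all and 0.0947% of covered lower. At an unadjusted p under 0.05 there were 66 run transcripts in that comparison (12.2%), against 15.5% of covered and 14.9% of all transcripts. Between old and adult, 2 were higher (0.370%), against 2.37% of all and 1.09% of covered transcripts, and 8 lower (1.48%), against 1.45% of all and 2.23% of covered. DESeq2 made more calls among all transcripts as well. In old vs young it called 15 run transcripts higher (2.78%), against 9.56% of all and 5.00% of covered, and 85 lower (15.7%), against 8.76% and 15.4%. In adult vs young it called 7 higher (1.3%), against 3.42% of all and 3.14% of covered, and 4 lower (0.741%), against 1.10% and 1.15%. In old vs adult it called 9 higher (1.67%), against 6.55% of all and 3.01% of covered, and 46 lower (8.52%), against 5.96% and 10.8%. The calls in old vs young depended on single libraries. Shares of all transcripts were not counted with a library left out, so this dependence cannot be read as particular to run transcripts.

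The 2 run transcripts with the largest called rise and the 2 with the largest called fall in old vs young are named here, chosen after their values were seen. Nfu_t_1_051381 (374 codons, 1 run of 5 codons) had 35.1 and 33.4 CPM (footprints scaled to library size with TMM factors) in old, against 13.5 and 7.13 CPM in young libraries (log2 fold change 1.73, edgeR adjusted p = 0.0292). Nfu_t_1_017125 (559 codons, 1 run of 11 codons) had 143 and 93.5 CPM in old, against 46.1 and 43.1 CPM in young libraries (log2 fold change 1.404, edgeR adjusted p = 0.0319). Nfu_t_1_018273 (1662 codons, 4 runs, the longest of 17 codons) had 32.5 and 27.4 CPM in old, against 116 and 130 CPM in young libraries (log2 fold change -2.04, edgeR adjusted p = 0.0149). Nfu_t_1_037323 (401 codons, 1 run of 5 codons) had 4.35 and 4.17 CPM in old, against 12.1 and 22.7 CPM in young libraries (log2 fold change -2.03, edgeR adjusted p = 0.0267). Old and young libraries did not overlap in any of the 4, which follows largely from their choice by this difference and is no further support. Of the 135 transcripts whose longest run had 8 or more codons, 2 were higher and 9 lower in old, and of the 405 with shorter runs, 7 were higher and 39 lower. The median log2 fold change was -0.19 in both classes. Among all 6335 covered transcripts 209 were higher (3.30%) and 552 lower (8.71%). The classes of run length were not compared by a test.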

How the data were processed

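The authors trimmed adapters with Cutadapt 1.4.2 after base calling with CASAVA 1.8 (versions from the submitters' processing notes), removed the first nucleotide and ribosomal RNA reads, and aligned with Bowtie 1.3.1 to the longest transcript of each gene with 21 nucleotides on either side. They kept reads with 1 best location, and riboWaltz placed the ribosome on footprints. The methods name the genome assembly and annotation Nfu_20150522 and nfurzeri_genebuild_v1.150922 for other assays and do not repeat them for ribosome profiling. The deposited values are counts: whole footprints per codon and library, not normalized. The lysate held cycloheximide, which stops elongating ribosomes and can shift footprints. No molecular identifiers were described, so PCR copies are counted separately.

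Codons were translated from the deposited codon column. The deposited codon was taken as the P site. The methods state an A-site estimate, so a shift by 1 codon was an alternative. No value given here settles this choice, and the setting with the run codon as the A site is named under it. If the deposited codon is the A site, the main values already hold for run codons in the A site. The shifted setting would then read 1 codon further upstream. Runs, scores and exact tests were computed in Python 3.11.15 (numpy 2.4.6, scipy 1.17.1), and window and transcript fits with edgeR 4.0.16 (DESeq2 1.42.0 as an alternative) in R 4.3.3 on counts, with an offset of log transcript reads for windows and TMM scaling and filterByExpr for transcripts. Adjusted p-values (Benjamini-Hochberg) under 0.05 were called over all features tested. In Fisher's exact test the reads in the age with the higher score also had to exceed the transcript mean. Fitting was tested on simulated data. Named runs were the 5 longest, the 5 highest and 5 lowest scores among runs of 60 or more reads, the 3 smallest p-values for a higher and for a lower score in old than in young, and up to 3 increased and 3 decreased codons. Members, lists and tests were chosen with earlier results of these data known. The identifiers were not paired with gene names (0 matched), so no gene name, protein sequence or genome position is given.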

Additional observations from a re-analysis of the deposited data

Results flagged for a closer look

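Acidic runs that lay within 20 codons of an end of the coding sequence were outside the comparisons above, and footprints were present there. The 36 runs in the first 20 codons held 1032 reads over the 6 libraries and scored 0.902 ± 0.195 (SD, n = 6), with 0.651 and 1.13 (young), 0.810 and 0.951 (adult) and 0.758 and 1.11 (old libraries). The 110 runs in the last 20 codons held 8060 reads and scored 0.510 ± 0.037, with 0.523 and 0.506 (young), 0.493 and 0.475 (adult) and 0.486 and 0.578 (old libraries). Both read counts are above the 3 counts that a count of 0 allows. Scores there are relative to the internal mean of the transcript, and the difference between these runs and the internal ones was not tested.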

How the results depend on the processing

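The low score of acidic runs against acidic codons outside them and against both flanks kept its sign and its side of the threshold in every planned setting other than leaving out a library. With 5 libraries no p below 0.0625 is possible, so none could pass. Leaving out each library gave -0.511 to -0.486 for runs minus outside codons, 0.426 to 0.456 for the flank before minus the run, 0.319 to 0.334 for the flank after, and -0.272 to -0.232 for acidic minus basic runs. The acidic minus basic difference was 0.061 with pooled reads, 0.047 with over 2 reads per codon in each library, and -0.098 (p = 0.0625, exact sign-flip test) with the run codon as the A site. The mean run score was 0.228 as a median over runs, 0.639 with pooled reads, 0.515 with the run codon as the A site, 0.528 for runs of 4 or more, 0.338 for runs of 7 or more and 0.525 with over 2 reads per codon. The old minus young difference was -0.0078 with pooled reads and -0.024 with over 2 reads per codon, and leaving out libraries gave -0.049 to 0.058. Old minus adult then ranged from -0.00052 to 0.107. None of these age differences was called, and the cause of the sign changes was not tested.

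In Fisher's exact test at adjusted p under 0.01, decreased run codons numbered 2 in old vs young and 2 in adult vs young. Leaving out libraries gave 2 to 4 increased and 0 to 6 decreased codons in old vs young, 1 to 5 and 2 to 6 in adult vs young, and 1 to 5 and 2 to 3 in old vs adult. Shares of all codons were not counted at that threshold or with libraries left out, so these counts cannot be read as particular to run codons. The runs called by edgeR stayed at 0 in each setting run. Shares of all windows were counted only in the main setting and with DESeq2, so the 0 cannot be read as particular to runs. For the occupancy of run transcripts, higher and lower, DESeq2 called 15 and 85 in old vs young, 7 and 4 in adult vs young, and 9 and 46 in old vs adult, with the shares of all and of covered transcripts given above. With all transcripts of at least 1 read, there were 14 higher and 71 lower in old vs young. The counts were 8 and 2 in adult vs young, and 7 and 37 in old vs adult. Shares of all transcripts were not counted in this setting or with libraries left out. These counts can therefore not be read as particular to run transcripts. Leaving out libraries gave 0 to 4 higher and 0 to 51 lower in old vs young, 0 to 6 and 0 to 1 in adult vs young, and 0 to 3 and 0 to 6 in old vs adult.

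Libraries share replicate numbers, but the numbers were not shown to pair them: over 69 runs the deviations of same-numbered libraries correlated at 0.060 (old and young), -0.068 (adult and young) and 0.004 (old and adult). With the replicate block, decreased run codons numbered 2 in old vs young and 2 in adult vs young, and increased ones 1 in old vs adult, while run transcripts called higher and lower numbered 2 and 20 in old vs young and 0 and 0 in old vs adult. The block changed no other call by over 1.5 times. Shares over all features were not counted with the block.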
